A study of Homo sapiens with 6 samples.

Results

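The mitochondrial genome carries 37 genes in the GENCODE 29 annotation of the human genome build GRCh38, all with symbols that begin with MT-. They are 13 messenger RNAs (mRNAs), 2 ribosomal RNAs (rRNAs) and 22 transfer RNAs (tRNAs), and every gene of the mitochondrial chromosome was taken, whatever its values. Of the 37, 18 had a row among the 26409 genes of the table, namely the 13 mRNAs, both rRNAs and 3 tRNAs. The mRNAs and rRNAs, 15 genes, were above 1 RPKM in all 6 libraries. RPKM, reads scaled to transcript length and sequencing depth, is a level per length, and levels of different genes are set side by side here on that scale. Such comparisons do not hold for every pair of genes. MT-ATP8 was listed at 4.29% to 6.88% of MT-ATP6, although both lie on a shared mRNA. The other 19 tRNAs were not analysed here.

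RNA was sequenced from SUM1315, a cell line of triple-negative breast cancer labelled WT in genotype. For hypoxia, 3 libraries, the cells spent 24 h at 1% oxygen in a sealed chamber, and for normoxia, 3 libraries, they were kept at 21% oxygen. Both groups were grown in serum-containing medium with insulin and EGF. Whether the libraries of a group came from separate cultures is not in the labels, so p-values reflect how much these libraries differ, and that spread may be technical.

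Human mitochondrial DNA is transcribed from both strands into long precursors that cover nearly the whole circle. Most genes are read from the heavy-strand promoter. The tRNAs that lie between the other genes are cut out to free the rRNAs and mRNAs, most of which then receive short poly(A) tails. The mRNAs encode subunits of respiratory complexes I, III, IV and V, and the rRNAs, 12S from MT-RNR1 and 16S from MT-RNR2, form the cores of the small and large subunit of the mitochondrial ribosome.

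The annotated order shows how tightly the genes are packed. From MT-RNR1 to MT-CYB, 14 rRNA and mRNA genes are read from the heavy strand, and the mRNA of MT-ND6 and 8 of the 22 tRNAs are read from the light strand. The boundary between the rRNAs and the mRNAs is shown first, because the called changes had opposite signs on its 2 sides. MT-RNR2 ends at chrM:3200-3229 and MT-ND1 begins at chrM:3307-3336, both on the plus strand of GRCh38, and the tRNA gene MT-TL1 lies between them. The sequences are those of the GENCODE 29 transcripts, and capitals mark the first codon of MT-ND1, which is ATA.
MT-RNR2 3′ end: tatacccacacccacccaagaacagggttt
MT-ND1 5′ end: ATAcccatggccaacctcctactcctcatt

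Estimated depth was 43.9 to 50.7 M reads in hypoxia libraries and 50.4 to 50.9 M in normoxia libraries. Of the 11884 genes tested, 1478 were raised in hypoxia (12.4%), 2901 were lowered (24.4%) and 4379 moved in either direction (36.8%), with a median log2 fold change of -0.08. Lowered genes were 66.2% of all calls with RPKM as deposited, 41.2% with median-of-ratios scaling, 42.6% with upper-quartile scaling and 79.3% when the summed RPKM of nuclear genes was set equal. Groups did not overlap for 52.0% of the genes tested. Of the receptors that the label implies to be absent, ESR1 was at most 0.209 RPKM and ERBB2 lay between 20.2 and 23.7 RPKM. PGR had no row among the genes of the table. The epithelial markers KRT8, KRT18, KRT19, EPCAM and CDH1 were at most 0.0785 RPKM in any library. Of the basal markers, KRT5 was at most 0.110 RPKM and KRT14 at most 0.0619 RPKM. Of the mesenchymal markers, VIM lay between 4741 and 7439 RPKM, CDH2 between 1.80 and 3.41 RPKM and FN1 between 1.19 and 1.77 RPKM. Of the fibroblast markers, COL1A1 lay between 241 and 406 RPKM, COL1A2 between 220 and 291 RPKM and PDGFRA between 2.00 and 4.21 RPKM. LUM was at most 0.00735 RPKM, and DCN had no row among the genes of the table.

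Both mitochondrial rRNAs were raised in hypoxia, and 2 of the 13 mRNAs, MT-ND1 and MT-ND2, were lowered. MT-ND1 and MT-ND2 encode core membrane subunits of complex I and are the first mRNAs after the rRNAs along the heavy strand. The other 11 mRNAs were not called in either direction. These calls come from limma on log2(RPKM + 1) across all genes tested, called at 0.05 after Benjamini-Hochberg adjustment, and the share of all genes tested that was raised or lowered, 36.8%, is the background for them. With 24.4% of all genes lowered in this fit, 2 of 13 mRNAs was not more than the background. The median log2 fold change of the 13 mRNAs was -0.19, beside -0.08 over all genes tested.

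**Figure D1:**
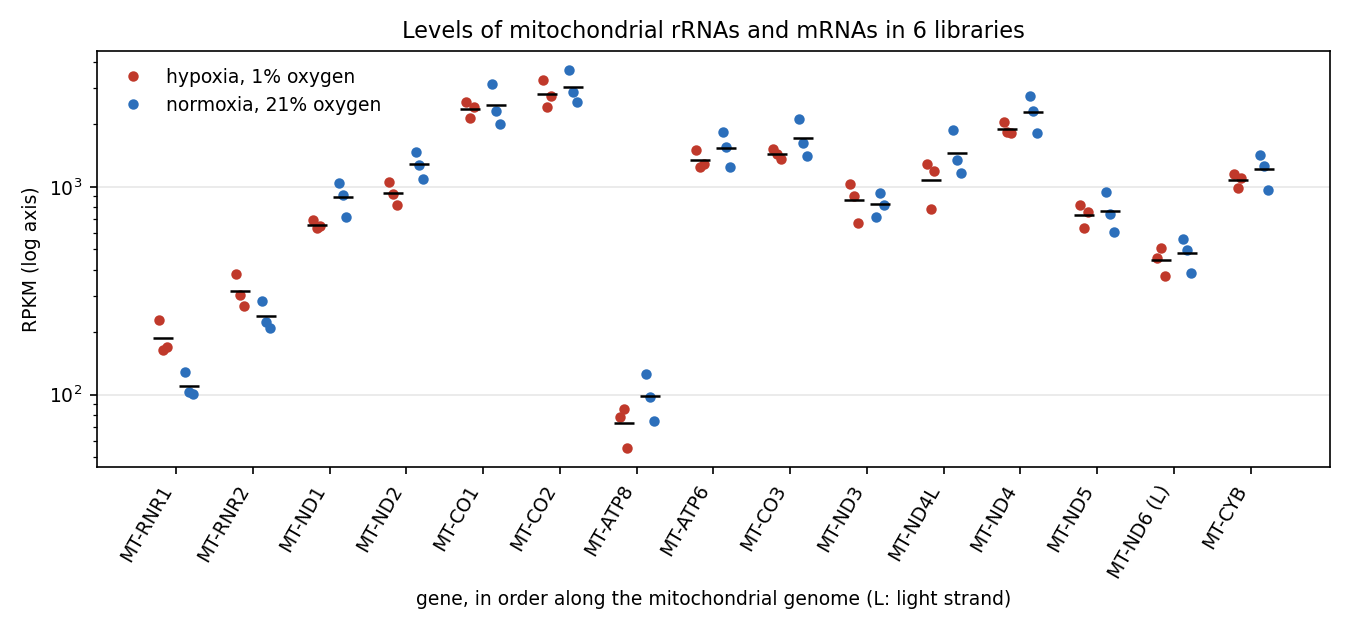
RPKM (log axis) of the 2 mitochondrial rRNAs and 13 mRNAs in 3 hypoxia libraries (red) and 3 normoxia libraries (blue), with genes in their order along the mitochondrial genome and bars at group means. By group mean, MT-ATP8 and the rRNAs sit below the other genes, while single points of MT-RNR2 and MT-ND6 overlap. The hypoxia points of MT-RNR1 lie above its normoxia points, and those of MT-ND1 and MT-ND2 lie below.

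MT-RNR1, the 12S rRNA, had 229, 164 and 169 RPKM in hypoxia libraries, against 128, 103 and 101 RPKM in normoxia libraries. All 3 hypoxia libraries were above all 3 normoxia libraries, which was the case for 16.4% of all genes tested. Its level averaged 187 ± 36.2 RPKM in hypoxia and 111 ± 15.3 RPKM in normoxia (SD, n = 3 each), a log2 fold change of 0.75 with SE 0.12 and an adjusted p of 0.00139. The call was lost only when low genes were not filtered out (adjusted p = 0.0566), among the alternatives run.

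MT-RNR2, the 16S rRNA, had 381, 301 and 266 RPKM in hypoxia libraries, against 282, 225 and 209 RPKM in normoxia libraries. The groups overlapped, since hypoxia replicate 3 was below normoxia replicate 1. The log2 fold change was 0.40 with SE 0.13 and an adjusted p of 0.0329. The adjusted p was 0.12 when hypoxia replicate 1 was left out, 0.0927 when normoxia replicate 2 was, and 0.124 when normoxia replicate 3 was, so each of these ended the call. It was also lost with equal sums over nuclear genes (adjusted p = 0.0884) and with no filter (adjusted p = 0.244).

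The ratio of the rRNAs to each other does not depend on how a library was scaled. MT-RNR1 stood at 60.2%, 54.5% and 63.5% of MT-RNR2 in hypoxia libraries, against 45.5%, 45.8% and 48.1% in normoxia libraries. The groups did not overlap, and the log2 ratio was higher by 0.35 in hypoxia. An exact two-sided permutation test over libraries gave p = 0.1, the smallest value that 3 against 3 libraries allow, and 0.2 after Benjamini-Hochberg adjustment over the 4 ratios and shares tested, so that this design could not reach the threshold.

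The rRNAs together made up a small part of the mitochondrial RNA in these libraries. Their summed RPKM was 610, 465 and 435 in hypoxia libraries, against 410, 328 and 310 in normoxia libraries. As a percent of the summed mRNA RPKM this was 3.49%, 3.19% and 2.85% in hypoxia libraries, against 1.89%, 1.85% and 2.09% in normoxia libraries. All 3 hypoxia values of this ratio were above all 3 normoxia values, by 0.71 on the log2 scale (exact two-sided permutation test, p = 0.1, adjusted over 4 to 0.2). Leaving out any library kept this log2 difference between 0.64 and 0.78.

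The rRNAs and the first mRNA were also compared directly across the boundary shown above. MT-RNR1 stood at 33.1%, 25.9% and 26.0% of MT-ND1 in hypoxia libraries, against 12.2%, 11.3% and 14.1% in normoxia libraries. MT-RNR2, which directly precedes MT-ND1 but for the tRNA gene, stood at 55.1%, 47.4% and 40.9% of MT-ND1 in hypoxia libraries, against 26.9%, 24.6% and 29.3% in normoxia libraries. Since MT-ND1 was chosen for its lower level and MT-RNR1 was higher, these ratios only describe the size of the step.

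**Figure D2:**
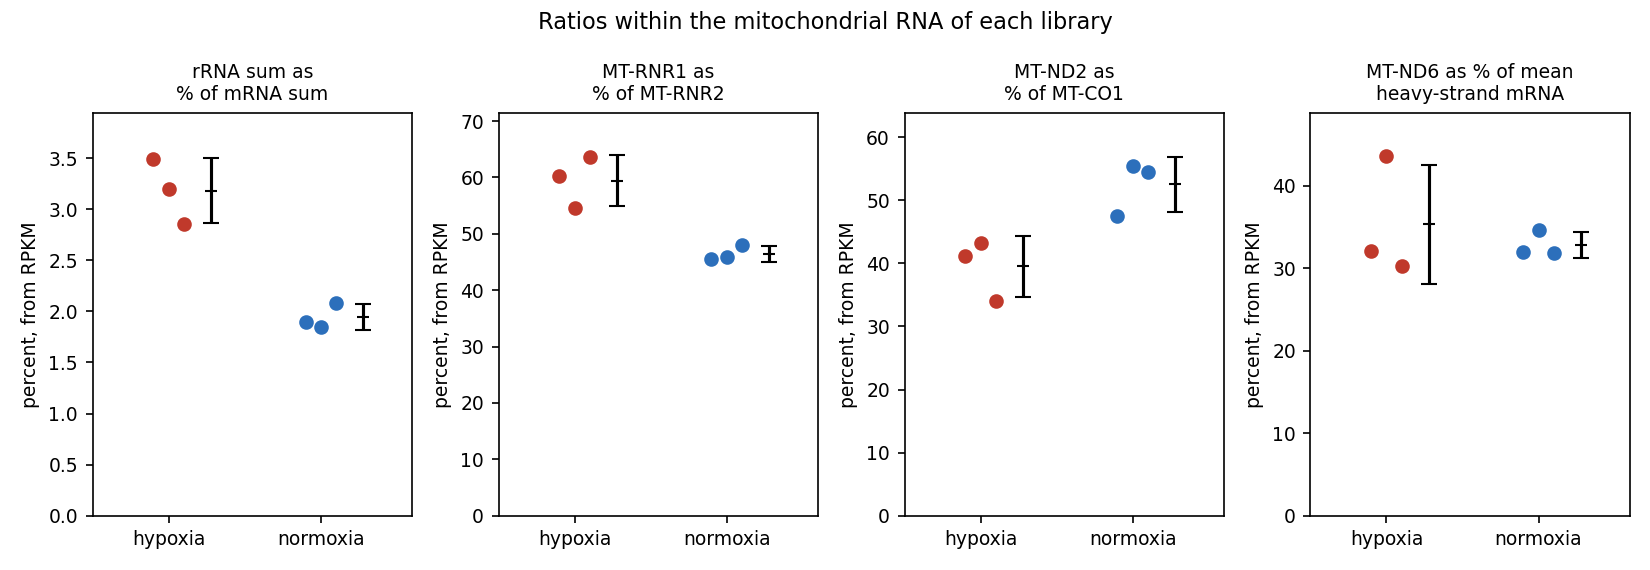
Ratios of RPKM within each library, in percent, for 3 hypoxia libraries (red, left in each panel) and 3 normoxia libraries (blue, right), with black bars at the mean and 1 SD to each side. The first 2 panels show higher values in all hypoxia libraries, MT-ND2 as a percent of MT-CO1 shows lower values in all hypoxia libraries, and MT-ND6 as a percent of the mean heavy-strand mRNA overlaps between groups.

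Some other RNAs that carry no long poly(A) tail were raised as the rRNAs were, in a list of 6 such genes put together after the mitochondrial values had been seen. RN7SK, the 7SK RNA that holds back transcription elongation in the nucleus, had 12.6, 7.64 and 8.66 RPKM in hypoxia libraries, against 1.86, 2.08 and 2.10 RPKM in normoxia libraries (log2 fold change 1.79, SE 0.14, adjusted p = 7.61e-06). RN7SL1 and RN7SL2, near-identical copies of the signal recognition particle RNA between which reads cannot be split with certainty, had log2 fold changes of 1.34 and 1.50, and RMRP, the RNA of ribonuclease MRP, one of 1.27. RMRP passed the filter only through its hypoxia libraries, with 1.92 to 2.93 RPKM in hypoxia and 0.38 to 0.523 RPKM in normoxia. RPPH1 and TERC were too low to test, and their groups overlapped. The summed RPKM of the list ranged from 58.0 to 75.4 in hypoxia libraries and from 17.6 to 25.7 in normoxia libraries. The clustered histone genes, whose mRNAs also lack a poly(A) tail, summed to between 336 and 375 RPKM in hypoxia libraries and between 339 and 361 RPKM in normoxia libraries. The highest of these genes held 43.5% of their sum, so the sums largely follow that gene. Of the 22 tested 4 were raised and 2 were lowered, beside 12.4% raised and 24.4% lowered over all genes tested. How RNA was selected before library preparation is not given in the sources used here, and its part in the rRNA values was not tested.

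Complex I, the NADH dehydrogenase through which electrons from NADH enter the respiratory chain, has 7 subunits from the mitochondrial genome. Of these 7, 2 were lowered, beside 24.4% lowered over all genes tested, so the count is near the background. MT-ND1 had 691, 635 and 650 RPKM in hypoxia libraries, against 1049, 914 and 715 RPKM in normoxia libraries. The hypoxia libraries were tightly grouped and all lay below the lowest normoxia library, as for 35.6% of all genes tested. The log2 fold change was -0.42 with SE 0.11 and an adjusted p of 0.0144. The call was lost without normoxia replicate 1 (adjusted p = 0.0507), with the trend over GC content removed (adjusted p = 0.0513) and with no filter (adjusted p = 0.159).

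MT-ND2 had 1051, 929 and 823 RPKM in hypoxia libraries, against 1481, 1282 and 1095 RPKM in normoxia libraries. The groups did not overlap. The log2 fold change was -0.46 with SE 0.11 and an adjusted p of 0.00947, a call that was lost with the GC trend removed (adjusted p = 0.0517) and with no filter (adjusted p = 0.13).

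As a description of the same values, the pair was also set against MT-CO1, the mRNA that follows them along the strand and whose share of the mRNA sum was higher in all hypoxia libraries. MT-ND1 stood at 27.1%, 29.6% and 26.9% of MT-CO1 in hypoxia libraries, against 33.6%, 39.6% and 35.6% in normoxia libraries. MT-ND2 stood at 41.2%, 43.2% and 34.1% of MT-CO1 in hypoxia libraries, against 47.5%, 55.5% and 54.5% in normoxia libraries. These ratios restate the levels above and add no further support to them.

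The remaining subunits of complex I were not called. MT-ND4, a proton-pumping subunit, had 2057, 1830 and 1821 RPKM in hypoxia libraries, against 2754, 2317 and 1809 RPKM in normoxia libraries (log2 fold change -0.25, SE 0.12, adjusted p = 0.132). MT-ND5, another pumping subunit, had 814, 638 and 755 RPKM in hypoxia libraries, against 946, 743 and 607 RPKM in normoxia libraries (log2 fold change -0.04, adjusted p = 0.833). For both, all hypoxia libraries lay within the range of the normoxia libraries.

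MT-ND3 and MT-ND4L encode the smallest of the complex I subunits that come from the mitochondrial genome. MT-ND3 had 1028, 904 and 670 RPKM in hypoxia libraries, against 718, 935 and 822 RPKM in normoxia libraries (log2 fold change 0.06, adjusted p = 0.762). It was the only mRNA of the 13 with a positive estimate, which was -0.02 with equal sums over nuclear genes. MT-ND4L had 1285, 783 and 1188 RPKM in hypoxia libraries, against 1874, 1344 and 1171 RPKM in normoxia libraries (log2 fold change -0.43, SE 0.19, adjusted p = 0.0879).

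MT-ND4L and MT-ND4 are carried on a shared mRNA, and their reading frames overlap by 7 bases at chrM:10760-10766. The end of MT-ND4L is shown because those 7 bases, in capitals, belong to both genes.
MT-ND4L 3′ end: gtacataacctaaacctactccaATGCTAA
By RPKM, MT-ND4L stood at 62.5%, 42.8% and 65.2% of MT-ND4 in hypoxia libraries, against 68.0%, 58.0% and 64.7% in normoxia libraries. The groups overlapped, with hypoxia replicate 2 the lowest.

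MT-ND6 is the complex I subunit encoded on the light strand. It had 454, 511 and 374 RPKM in hypoxia libraries, against 563, 497 and 384 RPKM in normoxia libraries (log2 fold change -0.10, adjusted p = 0.575). The kit does not mark strand, so RNA of MT-ND6 and antisense RNA from the heavy strand over the same bases cannot be told apart. MT-ND6 stood at 32.1%, 43.6% and 30.2% of the mean of the 12 heavy-strand mRNAs in hypoxia libraries, against 32.0%, 34.6% and 31.8% in normoxia libraries. The groups overlapped (log2 difference 0.09, exact two-sided permutation test, p = 0.8, adjusted over 4 to 0.8), and without hypoxia replicate 2 the log2 difference was -0.07.

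MT-CYB encodes cytochrome b, the only subunit of complex III from the mitochondrial genome. It had 1153, 990 and 1104 RPKM in hypoxia libraries, against 1425, 1261 and 962 RPKM in normoxia libraries. The groups overlapped, and the log2 fold change was -0.15 with SE 0.12 and an adjusted p of 0.337.

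Complex IV, cytochrome c oxidase, reduces oxygen to water and takes its 3 core subunits from the mitochondrial genome. None of the 3 was called. MT-CO1, which holds the site where oxygen is reduced, had 2551, 2149 and 2414 RPKM in hypoxia libraries, against 3119, 2310 and 2008 RPKM in normoxia libraries (log2 fold change -0.04, SE 0.13, adjusted p = 0.819). The 95% confidence interval of that log2 fold change ran from -0.34 to 0.25, and the estimate was 0.04 under median-of-ratios scaling and also under upper-quartile scaling. MT-CO2, which accepts electrons from cytochrome c, had 3256, 2439 and 2731 RPKM in hypoxia libraries, against 3669, 2858 and 2560 RPKM in normoxia libraries (log2 fold change -0.10, adjusted p = 0.561). MT-CO3 had 1530, 1437 and 1361 RPKM in hypoxia libraries, against 2116, 1628 and 1409 RPKM in normoxia libraries (log2 fold change -0.23, adjusted p = 0.146). In each of the 3 the hypoxia and normoxia libraries overlapped.

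Complex V, the ATP synthase, takes MT-ATP6, a part of its proton channel, and the small subunit MT-ATP8 from the mitochondrial genome. Their reading frames overlap by 46 bases, 22.2% of MT-ATP8, so reads in that stretch cannot be told apart between them. The shared stretch at chrM:8527-8572 is shown with the first codon of MT-ATP6 and the stop codon of MT-ATP8 in capitals.
MT-ATP8 and MT-ATP6 overlap: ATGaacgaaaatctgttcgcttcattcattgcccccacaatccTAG

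MT-ATP6 had 1509, 1242 and 1288 RPKM in hypoxia libraries, against 1844, 1551 and 1247 RPKM in normoxia libraries (log2 fold change -0.19, adjusted p = 0.248). MT-ATP8 had 78.4, 85.5 and 55.2 RPKM in hypoxia libraries, against 125, 96.9 and 74.3 RPKM in normoxia libraries (log2 fold change -0.42, SE 0.18, adjusted p = 0.0835). Although both reading frames lie on a shared mRNA, MT-ATP8 was listed at 5.19%, 6.88% and 4.29% of MT-ATP6 in hypoxia libraries, against 6.79%, 6.25% and 5.96% in normoxia libraries. MT-ATP8 was the lowest of the 13 mRNAs, with between 502 and 1318 estimated reads a library, and MT-CO2 the highest, with mean levels over all 6 libraries of 85.9 and 2919 RPKM.

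**Figure D3:**
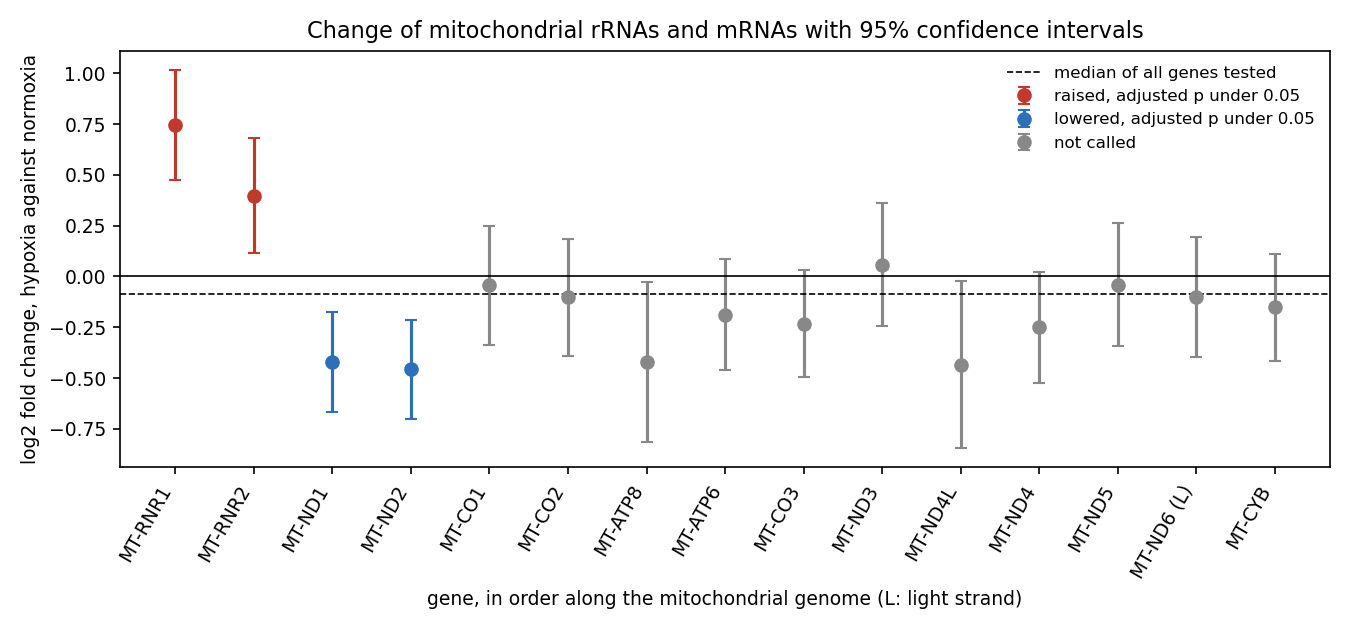
Log2 fold change, hypoxia against normoxia, of the 2 rRNAs and 13 mRNAs with 95% confidence intervals, in order along the mitochondrial genome; the dashed line is the median of all genes tested, -0.08. Red points were raised, blue points lowered and grey points not called at an adjusted p of 0.05. The rRNAs lie above 0, at 0.75 and 0.40, and MT-ND1 and MT-ND2, next to them, at -0.42 and -0.46.

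The change along the heavy strand was not a steady gradient. Over the 12 heavy-strand mRNAs the log2 fold change had a Spearman rho of 0.31 with the start position, between 0.20 and 0.39 with any library left out, and over the 14 heavy-strand mRNAs and rRNAs a rho of -0.17. The level in RPKM had a rho of -0.06 with position over the 12 mRNAs. These genes come from shared precursors and the same 6 libraries, so the coefficients only describe them. Among the 13 mRNAs, the log2 fold change had a rho of 0.07 with GC content, which ranged from 39.6% to 47.7%, and of 0.24 with length, from 207 to 1812 bases.

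By complex, the median log2 fold change of the mitochondrial mRNAs was -0.25 for the 7 subunits of complex I and -0.15 for the 1 of complex III. It was -0.10 for the 3 of complex IV and -0.31 for the 2 of complex V. The estimates ran from -0.46 to 0.06 in complex I and from -0.23 to -0.04 in complex IV. Those of complex V, MT-ATP6 at -0.19 and MT-ATP8 at -0.42, were not called. Expressed as a percent of the summed mRNA RPKM of the same library, MT-ND1 and MT-ND2 were lower in all 3 hypoxia libraries and MT-CO1 and MT-ND5 were higher in all 3, while 9 of the 13 overlapped. MT-CO1 made up 14.6%, 14.7% and 15.8% of the mRNA sum in hypoxia libraries, against 14.4%, 13.02% and 13.5% in normoxia libraries. MT-ND5 made up 4.67%, 4.38% and 4.96% in hypoxia libraries, against 4.36%, 4.19% and 4.09% in normoxia libraries. An exact two-sided permutation test gave p = 0.1 for each of these 4, and 0.325 after adjustment over the 13 mRNAs. These shares add to a fixed total, so a lower share of some mRNAs raises that of others.

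In normoxia the order of the libraries was shared by nearly all mRNAs. The mRNA sum was 17458, 14571 and 15235 RPKM in hypoxia libraries, against 21684, 17736 and 14864 RPKM in normoxia libraries, and the groups overlapped. Normoxia replicate 1 was the highest of all 6 libraries for 12 of the 13 mRNAs, and normoxia replicate 3 the lowest of its group for 12 of the 13. In hypoxia the order was less uniform: replicate 1 was the highest of its group for 11 of the 13 and replicate 2 for 2, while replicate 2 was the lowest for 7 and replicate 3 for 6. The median coefficient of variation of the 13 mRNAs was 12.2% in hypoxia libraries and 19.3% in normoxia libraries, beside 8.80% in hypoxia and 4.75% in normoxia over all genes tested. Without normoxia replicate 1, only MT-ND2 was lowered, beside 14.9% of all genes tested. Without normoxia replicate 3, 7 of the 13 mRNAs were lowered, beside 12.9% of all genes tested. The cause of this spread was not tested.

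**Figure D4:**
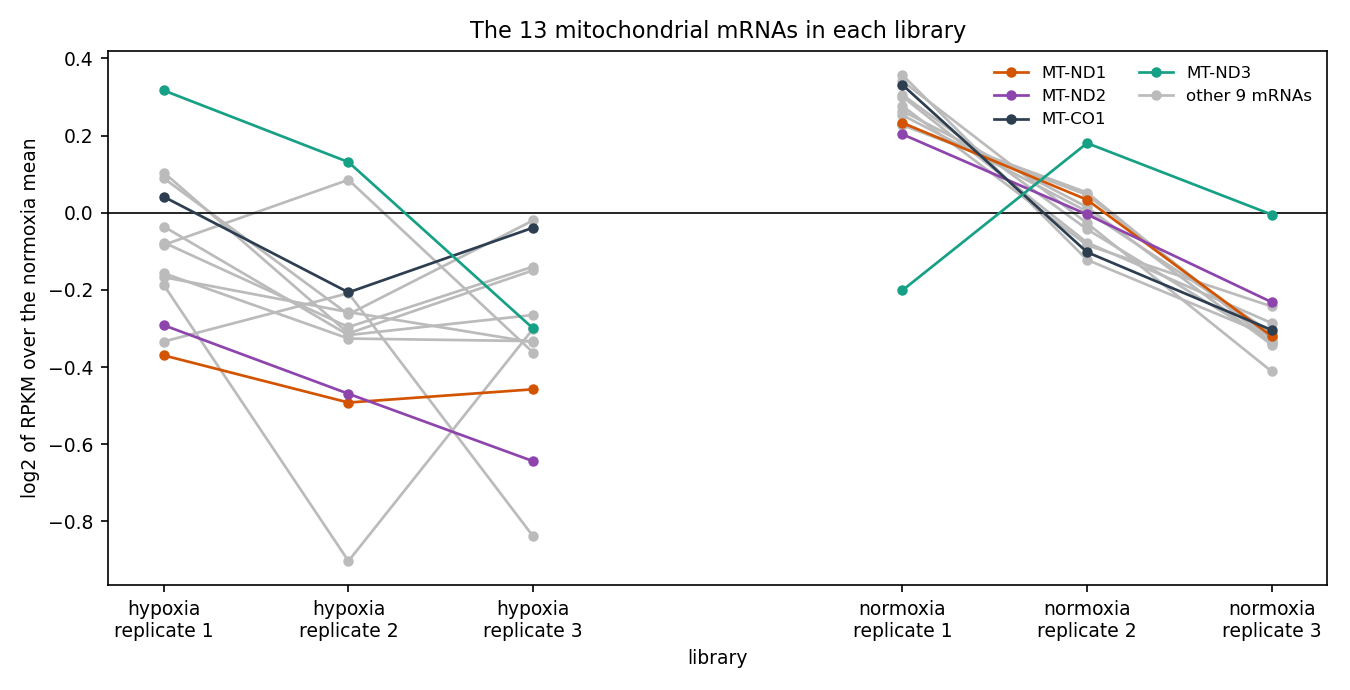
Log2 of RPKM over the normoxia mean of the same gene for the 13 mitochondrial mRNAs, in 3 hypoxia libraries (left) and 3 normoxia libraries (right). Lines join the values of a gene for reading only, since replicates have no order. In 12 of the 13 mRNAs normoxia replicate 1 is the highest library, and MT-ND1 and MT-ND2 are lower in all hypoxia libraries than in any normoxia library.

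The whole mitochondrial genome took 3.48%, 2.76% and 2.89% of all RPKM in hypoxia libraries, against 4.36%, 3.54% and 2.95% in normoxia libraries. The groups overlapped, and the difference of -0.57 percentage points gave p = 0.2 in an exact two-sided permutation test (adjusted over 4 to 0.267). The difference was -0.20 percentage points without normoxia replicate 1 and -0.91 without normoxia replicate 3. In estimated reads, which weight long transcripts more, the share was 2.00%, 1.65% and 1.75% in hypoxia libraries, against 2.47%, 1.98% and 1.64% in normoxia libraries. Fewer mitochondria per cell, fewer copies of the genome and less RNA per copy cannot be told apart in bulk RNA.

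The tRNAs were nearly absent from the table. No tRNA reached a mean of 1 RPKM in either group, and the 3 with a row are named because they were so few, a choice made after their values were seen. MT-TC, the cysteine tRNA, had 1, 1 and 0 reads in hypoxia libraries, against 1, 3 and 0 reads in normoxia libraries. MT-TA, the alanine tRNA, had no read in hypoxia libraries and 1 read in normoxia replicate 1, and MT-TY, the tyrosine tRNA, had no read in hypoxia libraries and 1 read in normoxia replicate 2. All 3 lie on the light strand in the tRNA cluster between MT-ND2 and MT-CO1, where a heavy-strand precursor could give the same unstranded reads. A count of 0 allows up to 3 reads, which is between 0.893 and 1.03 RPKM for MT-TC depending on the library, so no difference between groups was detectable at this depth. The annotated tRNAs are 59 to 75 bases long. MT-TC at chrM:5761-5826, on the minus strand, is shown as the tRNA with the most reads and serves as an example of their size.
MT-TC: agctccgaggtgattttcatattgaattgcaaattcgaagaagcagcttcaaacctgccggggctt

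The annotated ends of the mRNAs differ in a feature that is finished only after transcription. In 6 of the 13, MT-ND1, MT-ND2, MT-CO3, MT-ND3, MT-ND4 and MT-CYB, the gene ends within its stop codon, which is completed by the added A residues, and the other 7 carry a complete stop codon. Both lowered mRNAs belong to the 6, together with MT-ND3, the mRNA with the only positive estimate. The last 15 bases of the lowered pair are shown beside those of MT-CO1, the mRNA that follows them, with the stop codon, or the part of it in the gene, in capitals. They lie at chrM:4248-4262, chrM:5497-5511 and chrM:7431-7445, all on the plus strand.
MT-ND1 3′ end: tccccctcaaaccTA
MT-ND2 3′ end: tactaataatcttaT
MT-CO1 3′ end: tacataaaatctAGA
MT-ND6 also stands apart in base composition, with 35.6% G in its transcript, against 6.28% to 16.2% in the 12 heavy-strand mRNAs.

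Near-identical copies of mitochondrial DNA in the nuclear genome can take reads from these genes. Of 36 annotated copies with a row in the table, 3 had a mean of at least 1 RPKM, and the highest mean among the other 33 was 0.287 RPKM. All 3 lie together on chromosome 1. MTATP6P1, at chr1:633696-634376, differs from MT-ATP6 at 10 of 681 bases, with an identical run of up to 141 bases. It had 207, 193 and 176 RPKM in hypoxia libraries, against 267, 214 and 161 RPKM in normoxia libraries. That was 13.7% to 15.5% of MT-ATP6 in hypoxia libraries and 12.9% to 14.5% in normoxia libraries, and it was not called (log2 fold change -0.13, adjusted p = 0.497).

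MTND2P28, at chr1:629640-630683, aligns to MT-ND2 with 98.2% identity and an identical run of up to 266 bases. It had 50.2, 36.9 and 37.6 RPKM in hypoxia libraries, against 81.5, 67.7 and 58.5 RPKM in normoxia libraries, and was lowered (log2 fold change -0.72, SE 0.13, adjusted p = 0.00202). Its level was 3.97% to 4.77% of MT-ND2 in hypoxia libraries and 5.28% to 5.51% in normoxia libraries, and these ranges did not overlap. MTCO1P12, with 98.6% identity to MT-CO1, stood at 0.179% to 0.188% of it in hypoxia libraries and 0.166% to 0.189% in normoxia libraries. The next by mean, MTND4P12 and MTCO2P2, were below the filter. With the copies added to the genes they copy, the same 2 mRNAs were lowered. Short stretches of both pairs are shown because they show how alike the 2 places are, with the base that differs in capitals. They lie at chrM:8527-8586 and chr1:633696-633755 for the first pair, and at chrM:4706-4765 and chr1:629876-629935 for the second, all on the plus strand of GRCh38.
MT-ATP6: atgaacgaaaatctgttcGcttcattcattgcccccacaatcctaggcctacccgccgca
MTATP6P1: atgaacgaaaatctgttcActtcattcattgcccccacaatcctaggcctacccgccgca
MT-ND2: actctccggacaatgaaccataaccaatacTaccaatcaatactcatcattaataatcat
MTND2P28: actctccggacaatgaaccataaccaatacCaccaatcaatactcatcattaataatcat

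The mitochondrial genome is copied, transcribed and processed by proteins of nuclear genes. Of 56 such genes, all tested, 33 were lowered in hypoxia (58.9%), 3 were raised and 20 were not called, beside 24.4% lowered and 12.4% raised over all genes tested. Their median log2 fold change was -0.25, against -0.08 over all genes tested. The count lowered was 17 (30.4%) with median-of-ratios scaling and also with upper-quartile scaling, beside 11.97% and 12.3% of all genes tested, and 18 (32.1%) without normoxia replicate 3, beside 12.9%. Of the 18 genes listed under transcription and replication 11 were lowered and 1, TFB1M, was raised. Of the 38 listed under RNA processing, stability and modification 22 were lowered and 2 were raised. TFB1M was listed with transcription although it methylates the 12S rRNA.

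Among the genes of transcription, TFAM, which packages mitochondrial DNA and opens its promoters, averaged 17.5 ± 2.05 RPKM in hypoxia and 25.8 ± 1.02 RPKM in normoxia (SD, n = 3 each), a log2 fold change of -0.54 with an adjusted p of 9.64e-04. TEFM, the elongation factor, averaged 4.19 ± 0.20 RPKM in hypoxia and 6.59 ± 0.75 RPKM in normoxia, also a log2 fold change of -0.54 (adjusted p = 0.00143). TFB2M, which melts the promoter with the polymerase, was lowered by a log2 fold change of -0.45 (adjusted p = 0.00216). POLRMT, the RNA polymerase itself, averaged 36.0 ± 2.47 RPKM in hypoxia and 38.6 ± 2.05 RPKM in normoxia and was not called (log2 fold change -0.10, adjusted p = 0.261). With the GC trend removed POLRMT was lowered (log2 fold change -0.25, adjusted p = 0.0026).

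TFB1M, which methylates the 12S rRNA, averaged 13.5 ± 0.35 RPKM in hypoxia and 11.2 ± 0.18 RPKM in normoxia (SD, n = 3 each) and was raised (log2 fold change 0.25, adjusted p = 0.0134), a call lost without normoxia replicate 1 or 2 (adjusted p = 0.0554 and 0.0639). MTERF1, which binds the DNA just after the 16S rRNA gene, averaged 2.05 ± 0.31 RPKM in hypoxia and 2.94 ± 0.56 RPKM in normoxia (log2 fold change -0.36, adjusted p = 0.0366). Its groups overlapped, since normoxia replicate 2, at 2.29 RPKM, was below hypoxia replicate 1, at 2.41 RPKM. The MTERF1 call was lost under 8 of 14 alternatives, with adjusted p between 0.0147 and 0.299 over all of them. Of the replication genes, TWNK, the helicase, was lowered (log2 fold change -0.32, adjusted p = 0.0088), and POLG, the DNA polymerase, had a log2 fold change of -0.03 (adjusted p = 0.787), which was 0.06 with median-of-ratios scaling and 0.05 with upper-quartile scaling.

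Among the genes that act on the RNA, PNPT1 and SUPV3L1 form the complex that degrades it. PNPT1 averaged 8.85 ± 1.08 RPKM in hypoxia and 14.3 ± 0.62 RPKM in normoxia (SD, n = 3 each), and its log2 fold change of -0.64 was the lowest of the 56 (adjusted p = 4.93e-04). SUPV3L1 had a log2 fold change of -0.46 (adjusted p = 5.66e-04). LRPPRC and SLIRP, partners that stabilise mitochondrial mRNAs, had log2 fold changes of -0.38 and -0.30 (adjusted p = 0.0155 and 0.0233). The LRPPRC call was lost under 4 of 15 alternatives: with upper-quartile scaling (adjusted p = 0.0504), without normoxia replicate 3 (adjusted p = 0.0523), with no filter (adjusted p = 0.114) and with the GC trend removed (log2 fold change -0.24, adjusted p = 0.0935). The SLIRP call was lost under 8 of 15 alternatives, with adjusted p between 7.45e-04 and 0.171. The SLIRP groups overlapped, with hypoxia replicate 2 at 154.6 RPKM and normoxia replicate 1 at 154.1 RPKM.

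ELAC2 and TRMT10C, which act in freeing tRNAs from the precursor, were lowered. ELAC2, which cuts at the 3′ end of tRNAs, averaged 35.4 ± 1.69 RPKM in hypoxia and 50.3 ± 0.36 RPKM in normoxia (SD, n = 3 each), a log2 fold change of -0.50 with an adjusted p of 1.68e-04. TRMT10C, a subunit of the enzyme that cuts at the 5′ end, had a log2 fold change of -0.39 (adjusted p = 0.0184), a call lost under 6 of 15 alternatives with adjusted p between 0.00546 and 0.149. TRIT1, which modifies tRNAs next to the anticodon, and FASTK, which has a mitochondrial form that acts on the MT-ND6 RNA, were raised, their log2 fold changes being 0.18 and 0.17 (adjusted p = 0.0355 and 0.041). The TRIT1 call was lost under 7 of 15 alternatives, with adjusted p between 0.00228 and 0.162, and the FASTK call under 10 of 15, with adjusted p between 0.0075 and 0.363.

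**Figure D5:**
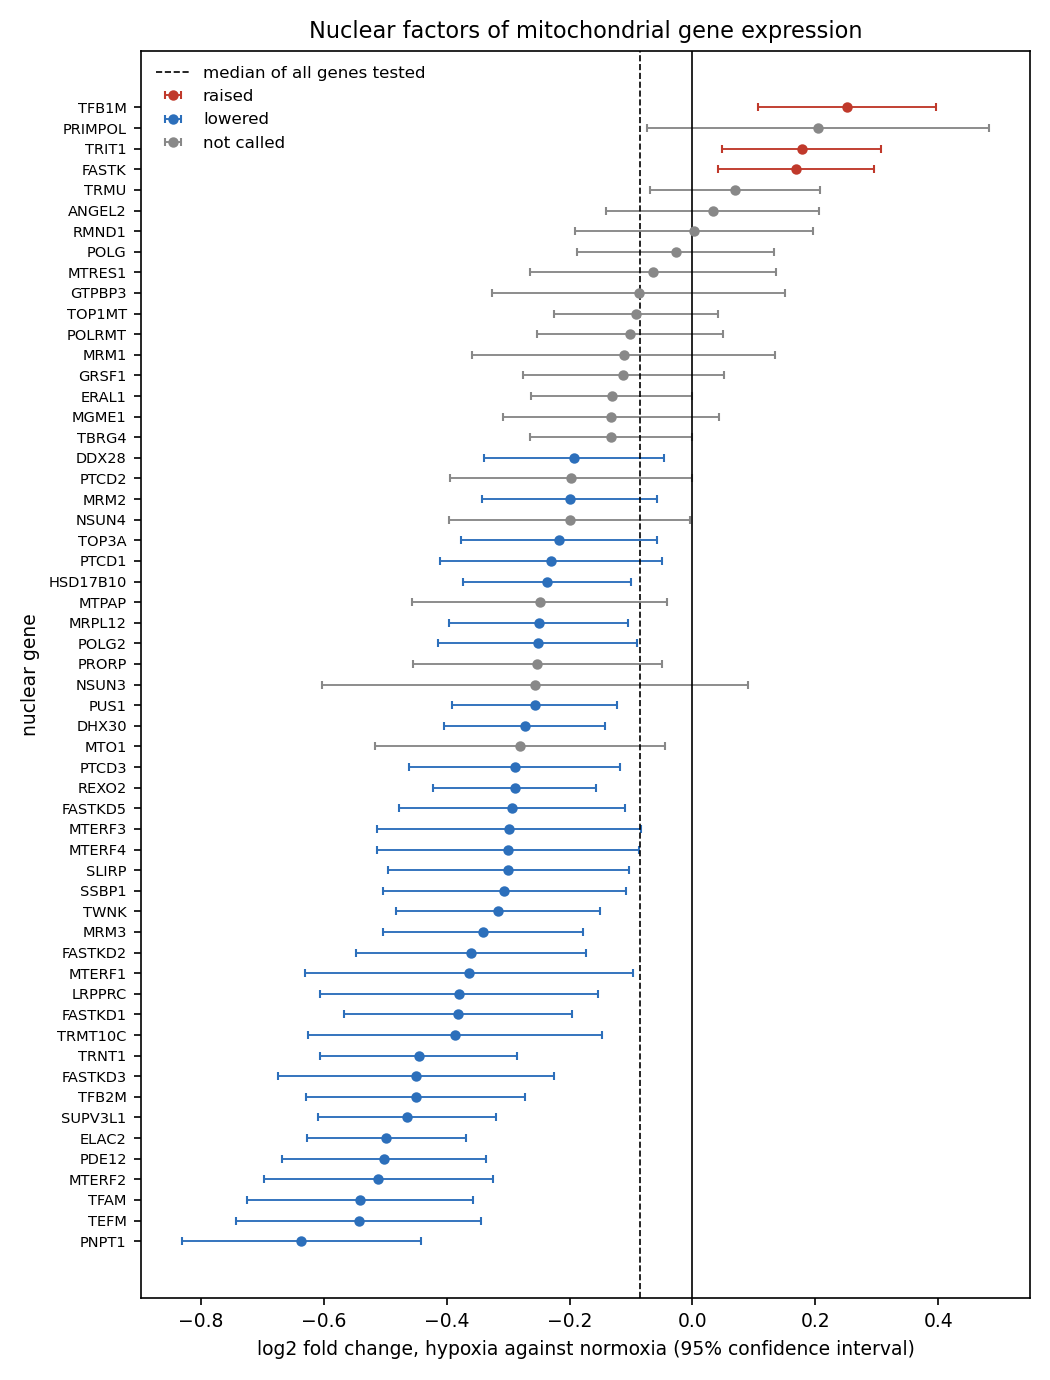
Log2 fold change, hypoxia against normoxia, of the 56 nuclear genes that copy, transcribe and process the mitochondrial genome, with 95% confidence intervals; the dashed line is the median of all genes tested, -0.08. Red genes were raised (3), blue genes lowered (33) and grey genes not called (20), and PNPT1, TEFM and TFAM stand lowest.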

How the data were processed

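RNA of 6 SUM1315 libraries was measured, 3 from hypoxia and 3 from normoxia, grouped by the treatment label. Libraries were made from column-purified RNA with the unstranded NEBNext Ultra RNA kit, per the labels' protocols. The submitters' processing notes name Trimmomatic, HISAT2, SAMtools, Partek and the build GRCh38. The authors deposited 1 table of RPKM values per Ensembl transcript (165956 rows). Its unit is inferred: of low values times transcript length, 65.7% to 67.3% lay within 0.1 of a whole multiple, up to 20, of a step, which gave the estimated depth and reads. Other values are estimates, so whole reads were not recovered for nearly all genes. For normalization and counting settings, nothing is given in the sources used here.

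Transcripts were joined by identifier to GENCODE 29 (140004 matched, 84.4%, the others holding 3.44% to 3.68% of RPKM) and summed to 26409 genes. Genes above 1 RPKM in at least 3 libraries were fitted on log2(RPKM + 1) with limma 3.58.1 and its trend option, hypoxia against normoxia with no covariate, and adjusted by Benjamini-Hochberg over all genes tested. Fold changes are on that scale and understate those of low genes. Single values per library were compared by exact permutation. Confidence intervals of fold changes come from limma and cover the spread between libraries, and the limit for a count of 0 covers counting error only. The fit was checked on simulated data. Alternatives were other scalings, filters and pseudocounts, a replicate block, removal of the GC trend, limma-voom on estimated reads, each library left out, and nuclear copies added, the last chosen after seeing the data. Named were all rRNAs and mRNAs, 13 nuclear genes whatever their values, the 3 most raised and most lowered, and the 5 copies with the highest mean. Members, lists and rules were chosen with earlier results of these data known.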

Additional observations from a re-analysis of the deposited data

How the results depend on the processing

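The rRNA over mRNA ratio, the 12S over 16S ratio and the mitochondrial share of RPKM kept their direction under every alternative run on them, and no mitochondrial mRNA was raised under any. The number of mitochondrial mRNAs lowered, 2 as reported, was 0 with no filter on low values and with the GC trend removed, 7 with the replicate block, and 1 to 7 with a library left out. Of all genes tested, 5.18% were lowered with no filter, 20.4% with the GC trend removed and 22.4% with the replicate block. Over all genes, the number called was 2436 with no filter and 2549 to 4370 with a library left out, and the number lowered was 1422 with median-of-ratios scaling, 1466 with upper-quartile scaling, 1367 with no filter and 1522 to 2852 with a library left out. Of the nuclear factors, 17, 17 and 16 were lowered under those 3 settings and 18 to 33 with a library left out, while 1 was raised with equal sums over nuclear genes, with the replicate block and with limma-voom, and 0 to 3 with a library left out. The cause was not tested.

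The estimate changed sign for genes that were not called: to 0.0425 (MT-CO1), 0.0447 (MT-ND5), 0.0556 (POLG) and 0.039 (MTCO1P12) with median-of-ratios scaling, to 0.037, 0.0391, 0.0502 and 0.0347 for the same genes with upper-quartile scaling, to -0.0196 for MT-ND3 with equal sums over nuclear genes, and with the GC trend removed to 0.0597 (MT-CO1), 0.00075 (MT-CO2), 0.0804 (MT-ND5), 0.0529 (MT-ND6), 0.0085 (MTATP6P1) and 0.0791 (MTCO1P12). With a library left out, the log2 fold change ranged from -0.18 to 0.14 for MT-CO1, -0.22 to 0.0442 for MT-CO2, -0.0757 to 0.23 for MT-ND3, -0.20 to 0.12 for MT-ND5, -0.26 to 0.0206 for MT-ND6, -0.10 to 0.0417 for POLG, -0.32 to 0.046 for MTATP6P1 and -0.12 to 0.14 for MTCO1P12, and the log2 ratio of MT-ND6 to the heavy-strand mRNAs from -0.0738 to 0.19.

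The groups share replicate numbers. Deviations of same-numbered libraries had correlations of 0.09, 0.03 and -0.23, which with 3 libraries a group cannot decide whether the numbers pair them. Replicate 1 was the highest of its group for 11 mitochondrial mRNAs in hypoxia and 12 in normoxia. The lowest was most often replicate 2 in hypoxia (7) and replicate 3 in normoxia (12). The replicate block lowered the SE of every mitochondrial mRNA and rRNA, from 0.13 to 0.061 for MT-RNR2. It raised that of some nuclear genes, from 0.059 to 0.073 for ELAC2. The replicate block called 4129 genes, with MT-ATP8, MT-ATP6, MT-CO3, MT-ND4L and MT-ND4 lowered besides MT-ND1 and MT-ND2. For the ratios, an exact test on 3 pairs cannot go below p = 0.25. The tRNAs, RPPH1, TERC and 33 of the 36 nuclear copies were too low to test.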
